A study of Homo sapiens and Mus musculus with 12 samples.

Results

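The CC chemokines CCL3, CCL4 and CCL5 and the XC chemokine XCL1 were followed by their transcript levels in natural killer (NK) cells in which the histone methyltransferase EHMT2 (G9a) was deleted or inhibited. The members were the rows of 2 count tables that carry these gene symbols: Ccl3, Ccl4, Ccl5 and Xcl1, 4 of 22021 genes in the mouse table, and CCL3, CCL4, CCL5, XCL1 and XCL2, 5 of 18304 genes in the human table. The mouse libraries came from NK cells (CD3-NK1.1+) sorted from the spleens of C57BL/6J mice. WT mice carried Ehmt2 flox/flox alone, and KO mice carried Ehmt2 flox/flox with Ncr1-iCre, in which Ncr1, which encodes the activating receptor NKp46, drives the recombinase, so that deletion follows Ncr1 expression. The genotype field of the KO samples reads Ezh2-KO while their titles name EHMT2, and the titles were used. The human libraries came from NK92MI, 1 human NK lymphoma-derived line engineered to secrete IL-2, given the EHMT2 inhibitor BIX-01294 (BIX) or its solvent DMSO. Each of the 4 groups had 3 libraries of polyadenylated RNA. Nothing in the labels says whether the NK92MI libraries came from separate cultures, and p-values there measure the spread between these libraries, which may be technical.

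Chemokines are small secreted proteins that direct leukocyte migration through G protein-coupled receptors. Activated and resting NK cells make CCL3, CCL4, CCL5 and XCL1, and through them recruit T cells, monocytes and dendritic cells. CCL3 and CCL5 act on CCR1 among other receptors, CCL5 also on CCR3, and XCL1 on XCR1, a receptor of cross-presenting dendritic cells. The CC class is named for adjacent cysteines near the start of the mature protein, of which the XC class keeps only one.

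That class mark can be read in the coding sequences of the 4 mouse members, shown here because it separates the 3 CC genes from Xcl1. Windows of the GENCODE M21 coding sequence are printed 5′ to 3′ with 10 codons on either side, and capitals mark the cysteine codons:
Ccl3: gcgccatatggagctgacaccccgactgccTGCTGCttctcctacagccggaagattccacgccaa
Ccl4: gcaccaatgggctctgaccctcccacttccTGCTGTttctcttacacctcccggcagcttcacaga
Ccl5: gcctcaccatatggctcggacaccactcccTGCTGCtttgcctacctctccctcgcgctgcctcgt
Xcl1: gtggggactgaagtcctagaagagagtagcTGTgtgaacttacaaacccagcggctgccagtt
The paired cysteine codons began at codon 34 of 92 in Ccl3, codon 34 of 92 in Ccl4 and codon 33 of 91 in Ccl5. In Xcl1, with 114 codons, the first cysteine codon after codon 20 was codon 32 and stood alone. An adjacent pair of cysteine codons also occurs in Xcl1 at codon 12, before the window shown. The 3 CC genes lie together on mouse chromosome 11 (GRCm38), with Ccl5 at chr11:83525778-83530518 on the minus strand, Ccl3 at chr11:83647844-83649355 on the minus strand and Ccl4 at chr11:83662584-83664683 on the plus strand. Xcl1 lies at chr1:164931644-164935527 on the minus strand. Each of the 4 has 3 exons in that annotation.

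Total counts were 25891680 to 37438868 per mouse library, lowest in WT 2, and 16579469 to 17165446 per human library. Levels are given as CPM, counts scaled to a common library size, with TMM factors that correct for differences in library composition. Differences are log2 fold changes with their standard errors (SE) from edgeR's quasi-likelihood test, and a gene passed when its Benjamini-Hochberg adjusted p over all tested genes was below 0.05. All 4 mouse members and all 5 human members passed the filter on low counts. Ehmt2 stood at 275, 284 and 286 CPM in WT 1, 2 and 3 and at 171, 143 and 137 CPM in KO 1, 2 and 3, a log2 fold change of -0.91 (SE 0.10, edgeR adjusted p = 0.0162), while Ezh2 had a log2 fold change of -0.23 (SE 0.09, edgeR adjusted p = 0.116). EHMT2 mRNA was also lower in BIX than in DMSO cells, by a log2 fold change of -0.58 (SE 0.08, edgeR adjusted p = 0.000101).

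The first comparison, KO against WT, asked how the chemokine transcripts of splenic NK cells differ when Ehmt2 is deleted in the NK lineage. Ccl4 and Xcl1 rose in KO cells, while Ccl3 and Ccl5 had higher means in KO than in WT but did not pass. Of the 4 members, 2 passed as higher and 0 as lower, where 4.44% of the 13189 genes tested passed as higher and 7.43% as lower. The median log2 fold change of the 4 members was 0.53, against 0.01 over all tested genes. By DESeq2 at an adjusted p below 0.01 with an absolute log2 fold change above 0.5, the same 2 members passed, where 2.87% of genes passed as higher and 7.87% as lower.

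Xcl1, the dendritic cell attractant, had 59.0, 69.0 and 46.1 CPM in WT 1, 2 and 3 and 101, 126 and 76.4 CPM in KO 1, 2 and 3. Every KO library lay above every WT library, a separation that 19.1% of all tested genes showed upward and 19.3% downward. The log2 fold change of Xcl1 was 0.81 (SE 0.21, edgeR adjusted p = 0.0473; 0.00156 by DESeq2). Ccl4, also called MIP-1β, had 35.3, 40.8 and 33.7 CPM in WT 1, 2 and 3 and 59.9, 59.9 and 46.9 CPM in KO 1, 2 and 3. Its groups did not overlap either, and KO 3 was the lowest of the KO libraries for both Xcl1 and Ccl4. The log2 fold change of Ccl4 was 0.60 (SE 0.13, edgeR adjusted p = 0.0364; 0.000885 by DESeq2).

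Ccl5, also called RANTES, was by far the most abundant member, with 1619, 2496 and 1694 CPM in WT 1, 2 and 3 and 2675, 2894 and 2453 CPM in KO 1, 2 and 3. The groups overlapped, since WT 2 exceeded KO 3. Its log2 fold change was 0.47 (SE 0.18) with an edgeR adjusted p of 0.117, while DESeq2 gave an adjusted p of 0.0382. Ccl3, a CCR1 ligand also called MIP-1α, had 56.4, 90.8 and 75.3 CPM in WT 1, 2 and 3 and 102, 115 and 88.1 CPM in KO 1, 2 and 3. Again WT 2 exceeded KO 3. The log2 fold change of Ccl3 was 0.46 (SE 0.18, edgeR adjusted p = 0.112; 0.0628 by DESeq2). Exact two-sided permutation tests of the log2 levels gave p = 0.1 for Ccl4 and Xcl1 and p = 0.2 for Ccl3 and Ccl5, where 0.1 is the smallest value that 3 against 3 libraries allow.

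**Figure D1:**
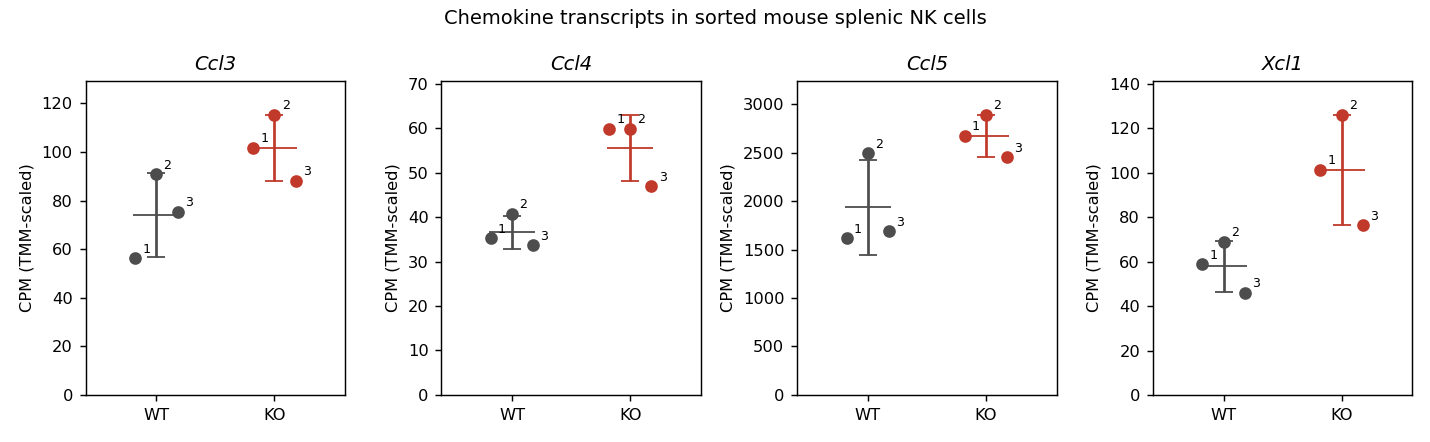
Levels of the 4 mouse members in each library (TMM-scaled CPM, vertical axis from 0), with the library number beside each point and the mean ± SD of 3 libraries as bars. The WT and KO points separate for Ccl4 and Xcl1, while WT 2 lies above KO 3 for Ccl3 and Ccl5.

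WT 2 was the highest WT library for all 4 members. Without WT 2 all 4 passed, with log2 fold changes of 0.63 for Ccl3, 0.69 for Ccl4, 0.69 for Ccl5 and 0.95 for Xcl1 (edgeR adjusted p = 0.0267, 0.0105, 0.0113 and 0.0177). Without WT 1, WT 3, KO 2 or KO 3 in turn, 0 members passed, and without KO 1 only Ccl4 did (edgeR adjusted p = 0.0489). The count of all genes that passed as higher moved in the same way, to 35 without WT 1, 6 without WT 3, 0 without KO 2 and 0 without KO 3, against 694 without KO 1 and 1433 without WT 2. Over these 6 settings the log2 fold change was 0.54 to 0.71 for Ccl4, 0.62 to 0.97 for Xcl1, 0.29 to 0.63 for Ccl3 and 0.35 to 0.69 for Ccl5.

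The level of NK cell transcripts moved with the same groups. The 12 genes of a pan-NK list, among them Ncr1, Klrb1c (NK1.1), Nkg7 and Gzma, were all higher in KO, 6 of them passing, with a median log2 fold change of 0.76. Their summed level was 5519, 9391 and 5774 CPM in WT 1, 2 and 3 and 10507, 12340 and 12164 CPM in KO 1, 2 and 3, so that WT 2 was also the highest WT library on this measure. In bulk RNA, more NK cells in a sort and more of a transcript per NK cell cannot be told apart. The list includes Il2rb, Prf1 and Tbx21, which the paper reports as raised in KO NK cells by RT-qPCR. Il2rb and Gzma had the highest levels in it. Log2 fold changes within the list ran from 0.42 (Ncr1, edgeR adjusted p = 0.185) to 0.90 (Tbx21), so ratios to the sum depend on the genes chosen. Relative to the pan-NK sum, Ccl5 made up 29.3%, 26.6% and 29.3% in WT 1, 2 and 3 and 25.5%, 23.5% and 20.2% in KO 1, 2 and 3. On this scale every KO library lay below every WT library (exact two-sided permutation p = 0.1). Lower values in KO were the common direction on such a scale. With the whole table rescaled to the list, 8114 of 13189 tested genes passed as lower and 34 as higher (edgeR adjusted p below 0.05). The share of all genes whose libraries separated relative to the pan-NK sum was not computed. Xcl1 relative to the same sum was 0.867% ± 0.178 (SD, n = 3) in WT and 0.872% ± 0.213 (SD, n = 3) in KO, with overlapping libraries (exact permutation p = 1). Ccl4 was 0.553% ± 0.106 (SD) of the pan-NK sum in WT and 0.480% ± 0.0924 (SD) in KO, and Ccl3 was 1.10% ± 0.182 (SD) in WT and 0.876% ± 0.132 (SD) in KO.

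When the whole table was rescaled so that the pan-NK list was level between groups, the log2 fold changes became -0.30 (SE 0.26) for Ccl3, -0.18 (SE 0.28) for Ccl4, -0.28 (SE 0.23) for Ccl5 and 0.03 (SE 0.28) for Xcl1, and none of the 4 passed. The same rescaling moved the median of all genes from 0.01 to -0.80. It shifts every gene by nearly the same amount, so the place of the 4 members relative to that median could hardly change.

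**Figure D2:**
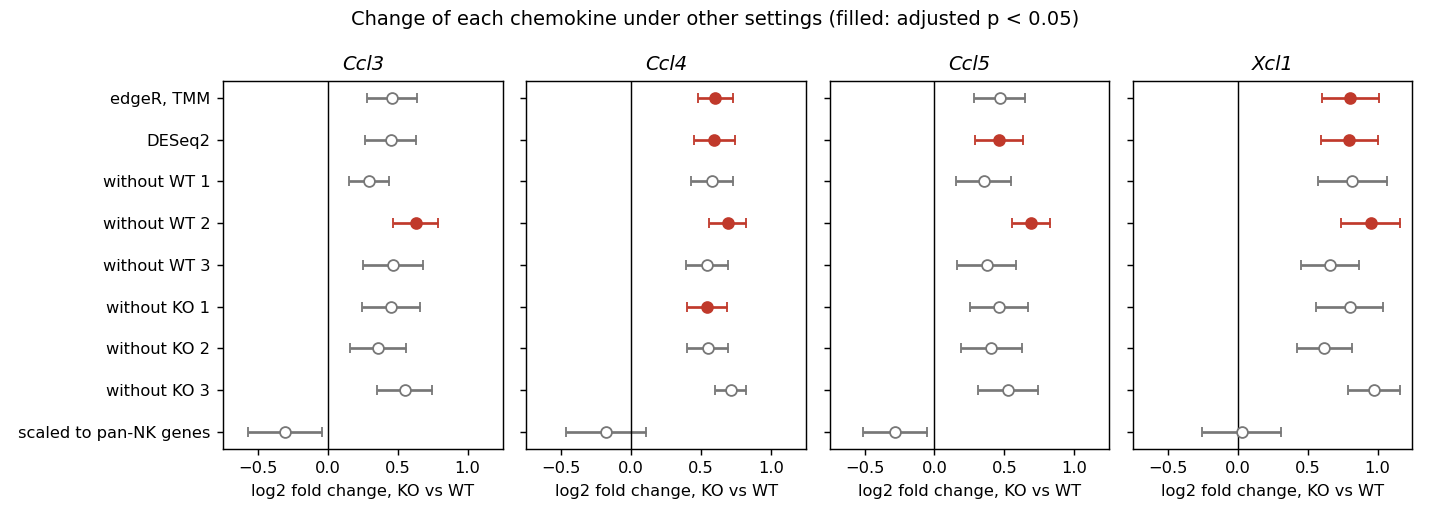
Log2 fold change of each mouse member, KO against WT (horizontal axis, point ± SE), by the main test, by DESeq2, without each library in turn, and rescaled to the pan-NK genes; filled points have an adjusted p below 0.05. The direction was higher in KO for all 4 members in each setting except the pan-NK rescaling, where Ccl3, Ccl4 and Ccl5 lay below 0 and Xcl1 at 0.03, and the filled points change with the library left out.

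Markers of other spleen cells had mostly lower levels in KO. Over all 13189 tested genes, 7.43% passed as lower and 4.44% as higher by edgeR, and 2639 were lower at an unadjusted p below 0.05. B cell markers were lower in KO for 9 of 9 genes tested, of which 0 passed by edgeR and 7 had an unadjusted p below 0.05. Their summed level was 454 to 1374 CPM in WT and 36.9 to 421 CPM in KO. Macrophage and monocyte markers were lower for 10 of 12 genes, with sums of 3069 to 7137 CPM in WT and 2013 to 3201 CPM in KO. Of the 10, 6 passed, which were Csf1r, Adgre1, Cd68, Vcam1, Cd14 and Spic. The monocyte marker Ly6c2 passed as higher (log2 fold change 0.63, edgeR adjusted p = 0.0427). Neutrophil markers were lower for 9 of 9 genes tested, 2 passing, dendritic cell markers for 9 of 10, 2 passing, and erythroid and platelet markers for 10 of 10, 6 passing. T cell markers, which matter here because T cells also make Ccl5 and Xcl1, were higher for 3 and lower for 6 of 9 genes, with sums of 261 to 354 CPM in WT and 213 to 357 CPM in KO. Cd3g was the T cell marker that passed, at a log2 fold change of 0.59 (edgeR adjusted p = 0.0452). The part of these other cells in the chemokine differences was not tested.

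Per kilobase of exon, a scale on which levels of different genes can be compared, Ccl5 led in WT at 2017 ± 507 CPM per kb (SD, n = 3). Xcl1 followed at 111 ± 22.0 and Ccl3 at 96.8 ± 22.5 CPM per kb, 2 neighbours whose libraries overlapped. Ccl4 was last at 55.5 ± 5.59 CPM per kb, below every Ccl3 library. The order was the same in KO, at 2785 ± 229 for Ccl5, 194 ± 47.6 for Xcl1, 133 ± 17.8 for Ccl3 and 84.2 ± 11.3 CPM per kb for Ccl4, again with overlap between Xcl1 and Ccl3. Without division by length, Ccl3 ranked above Xcl1 in both groups. Per kilobase of the longest coding transcript the order held, but Ccl5 stood at 3639 CPM per kb in WT and 5026 in KO. Ccl5 supplied 90.6% to 92.6% of the summed member CPM in every mouse library. The ratio of Ccl5 to Ccl4 levels (CPM) was 52.4 ± 7.93 (SD, n = 3) in WT and 48.4 ± 3.82 in KO, and its libraries overlapped (exact permutation p = 0.6).

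Of the receptors of these ligands, 5 are described here, and of these Ccr1 passed by edgeR, as lower in KO. Ccr1, which is prominent on myeloid cells, had 17.5, 13.5 and 41.9 CPM in WT 1, 2 and 3 and 8.97, 5.04 and 6.36 CPM in KO 1, 2 and 3, a log2 fold change of -1.84 (SE 0.43, edgeR adjusted p = 0.0428). Xcr1, the Xcl1 receptor, was low throughout, at 1.71 to 8.33 CPM in WT and 0.323 to 1.63 CPM in KO, without overlap. Its log2 fold change of -2.93 (SE 0.78) did not pass by edgeR (adjusted p = 0.0501), while DESeq2 gave an adjusted p of 0.000253. Ccr3 had a log2 fold change of -1.89 (edgeR adjusted p = 0.0648, and 0.0447 by DESeq2). The decoy receptors Ackr1 and Ackr2 had -0.26 (edgeR adjusted p = 0.624) and -2.03 (0.209). DESeq2 gave them adjusted p of 0.696 and 0.182.

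Of 37 other chemokine ligands, 35 were listed, 6 of them at 0 in every library, and 17 were tested. Their median log2 fold change was -0.58, and 2 passed, both lower, a share close to the 11.9% of all tested genes that passed in either direction. These were Ccl6, at 178, 177 and 254 CPM in WT 1, 2 and 3 and 133, 93.2 and 116 CPM in KO 1, 2 and 3 (log2 fold change -0.83, SE 0.18, edgeR adjusted p = 0.0382), and Ccl9, at 97.2 ± 10.5 CPM (SD, n = 3) in WT and 65.2 ± 11.3 in KO (log2 fold change -0.58, SE 0.14, edgeR adjusted p = 0.0455). Both are CC chemokines typical of myeloid cells and lie between Ccl5 and Ccl3 on chromosome 11. Of 15 other chemokine receptors tested, 0 passed by edgeR. At an unadjusted p below 0.05, 5 of them were lower and 2 higher, where 2639 of the 13189 genes tested were lower and 2080 higher. Among 28 regulators of chemokine transcription and mRNA decay, 3 passed, again a share near that of all genes. Tbx21, which encodes the NK and T cell factor T-bet and also stands on the pan-NK list, rose from 339 ± 89.4 to 632 ± 81.3 CPM (SD, n = 3; log2 fold change 0.90, edgeR adjusted p = 0.0368). The interferon-response factor Irf1 rose by a log2 fold change of 0.53 (edgeR adjusted p = 0.0324), and the NF-kB subunit Rel fell, with a log2 fold change of -0.34 (edgeR adjusted p = 0.0449).

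The second comparison, BIX against DMSO, asked how the same transcripts differ when the enzyme is inhibited in a human NK line. CCL3, CCL4 and CCL5 rose, while XCL1 and XCL2 did not pass. Of the 5 members, 3 passed as higher and 0 as lower, where 18.4% of the 12727 genes tested passed as higher and 18.4% as lower. At an adjusted p below 0.01 with an absolute log2 fold change above 0.5, the same 3 passed by edgeR, where 6.24% of genes passed as higher and 5.43% as lower. By DESeq2 at the same thresholds, CCL4 and CCL5 passed and CCL3 had an adjusted p of 0.0128, where 6.09% of genes passed as higher and 5.04% as lower. The DMSO libraries carry no number that ties them to a sample and are called a, b and c.

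CCL5 had 645, 752 and 647 CPM in DMSO a, b and c and 1260, 1187 and 1469 CPM in BIX 1, 2 and 3. The lowest BIX library lay well above the highest DMSO library, and the log2 fold change was 0.94 (SE 0.08, edgeR adjusted p = 2.22e-06). CCL4 had 216, 241 and 210 CPM in DMSO a, b and c and 426, 363 and 486 CPM in BIX 1, 2 and 3. It too separated without overlap, as 24.1% of all tested genes did upward and 23.9% downward, with a log2 fold change of 0.93 (SE 0.09, edgeR adjusted p = 5.73e-06). The ratio of CCL5 to CCL4 levels (CPM) was 3.06 ± 0.0721 (SD, n = 3) in DMSO and 3.08 ± 0.167 in BIX, with overlapping libraries (exact permutation p = 0.9).

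CCL3 was scarce, with 3.72, 5.96 and 5.38 CPM in DMSO a, b and c and 14.0, 6.47 and 15.9 CPM in BIX 1, 2 and 3, from 64 to 270 counts per library. BIX 2 lay only just above the highest DMSO library, and the other 2 BIX libraries far above it. The log2 fold change was 1.27 (SE 0.27, edgeR adjusted p = 0.00252).

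XCL1 had 13.0, 14.8 and 14.3 CPM in DMSO a, b and c and 18.4, 12.2 and 22.3 CPM in BIX 1, 2 and 3. BIX 2 was here the lowest of the 6 libraries and the other 2 BIX libraries the highest. The log2 fold change was 0.33 (SE 0.17, edgeR adjusted p = 0.148), and without BIX 2 it was 0.54 (SE 0.12, edgeR adjusted p = 0.00124). Without BIX 3 it was 0.13 (SE 0.15, edgeR adjusted p = 0.531). XCL2, a second human XC gene, had 10.6, 11.3 and 8.76 CPM in DMSO a, b and c and 9.19, 9.05 and 10.5 CPM in BIX 1, 2 and 3, and its log2 fold change was -0.09 (SE 0.14, edgeR adjusted p = 0.627). The ratio of XCL1 to XCL2 levels (CPM) was 1.39 ± 0.212 (SD, n = 3) in DMSO and 1.82 ± 0.413 in BIX, and the libraries overlapped (exact permutation p = 0.2). Exact permutation tests of the single genes gave p = 0.1, the smallest possible, for CCL3, CCL4 and CCL5, p = 0.4 for XCL1 and p = 0.6 for XCL2.

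**Figure D3:**
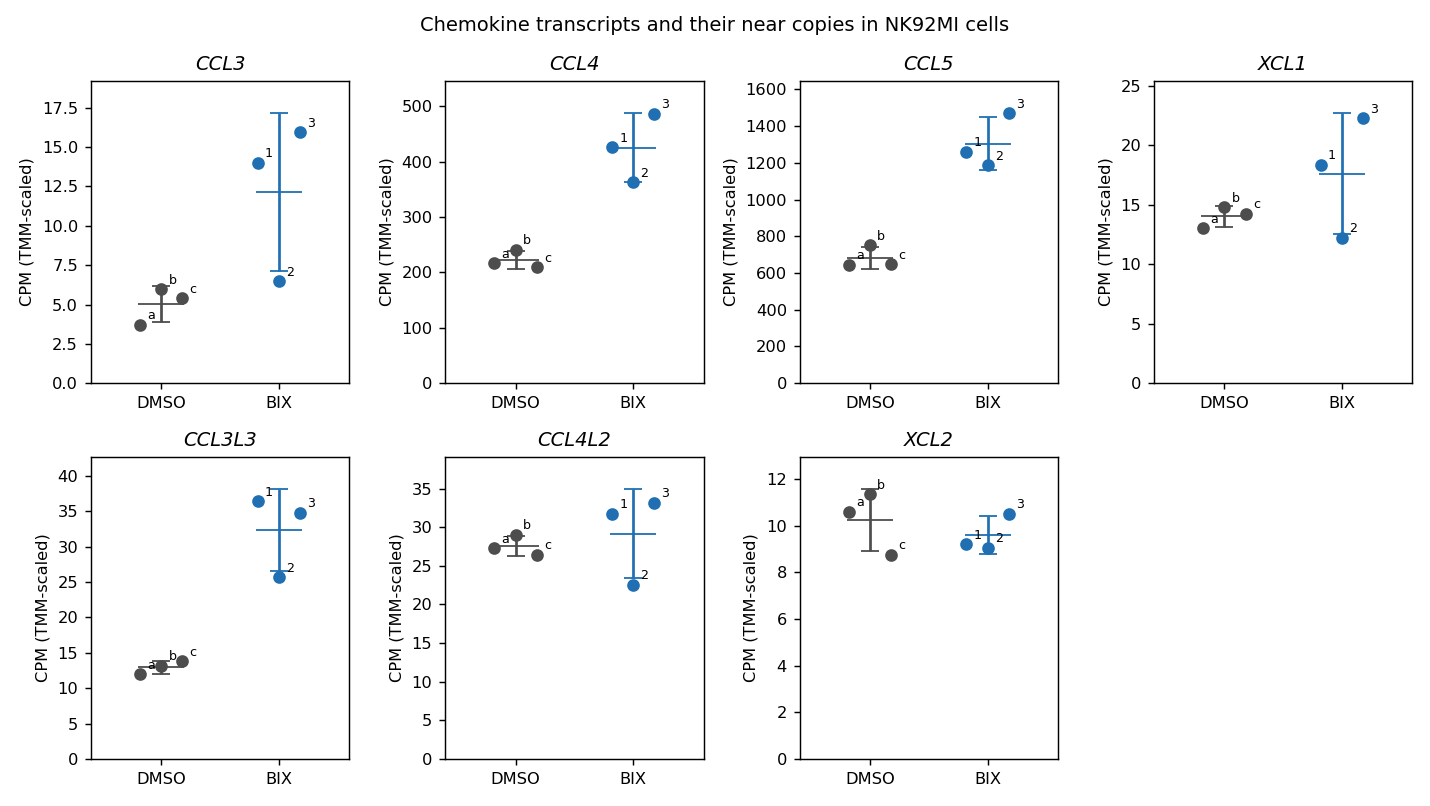
Levels of the 5 human members and of CCL3L3 and CCL4L2 in each NK92MI library (TMM-scaled CPM, vertical axes from 0), with the library letter or number beside each point and the mean ± SD of 3 libraries as bars. CCL4, CCL5 and CCL3L3 separate clearly, CCL3 by a narrow gap at BIX 2, and XCL1, XCL2 and CCL4L2 overlap.

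Several human members have near-identical copies, so reads can be shared between rows of the table, and how the authors' counting treated such reads is not given in the sources used here. On GRCh38 (GENCODE v44), CCL5 lies at chr17:35871491-35880793 (minus), CCL3 at chr17:36088256-36090169 (minus), CCL4 at chr17:36103827-36105621 (plus), and the copies CCL3L3 at chr17:36194869-36196758 (minus) and CCL4L2 at chr17:36210924-36212878 (plus). XCL2 lies at chr1:168540768-168543997 (minus) and XCL1 at chr1:168576605-168582069 (plus). The coding sequences of CCL3 and CCL3L3 are printed whole, without the stop codon, because crediting reads to CCL3 rests on telling these genes apart, and capitals mark the bases that differ in their alignment:
CCL3: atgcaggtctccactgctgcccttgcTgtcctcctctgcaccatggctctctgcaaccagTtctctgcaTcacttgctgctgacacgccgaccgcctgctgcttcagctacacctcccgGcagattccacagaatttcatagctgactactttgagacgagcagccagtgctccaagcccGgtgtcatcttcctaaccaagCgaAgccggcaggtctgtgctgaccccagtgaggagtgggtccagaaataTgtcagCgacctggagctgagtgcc
CCL3L3: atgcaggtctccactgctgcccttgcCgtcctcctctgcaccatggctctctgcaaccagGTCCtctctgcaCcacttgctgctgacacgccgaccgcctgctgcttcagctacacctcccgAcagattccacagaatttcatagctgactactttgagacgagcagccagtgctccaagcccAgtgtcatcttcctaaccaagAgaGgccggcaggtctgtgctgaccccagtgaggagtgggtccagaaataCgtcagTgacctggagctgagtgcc
They differed at 9 aligned bases and 3 further bases were present only in CCL3L3, an identity of 95.7%, and the longest stretch without a difference was 60 bases. For the most similar coding transcripts, CCL4 and CCL4L2 differed at 7 of 276 bases with a longest identical stretch of 144 bases. XCL1 and XCL2 differed at 5 of 342 bases with a longest identical stretch of 107 bases.

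CCL3L3 rose with CCL3. It had 12.0, 13.2 and 13.8 CPM in DMSO a, b and c and 36.5, 25.7 and 34.8 CPM in BIX 1, 2 and 3, a log2 fold change of 1.32 (SE 0.13, edgeR adjusted p = 5.53e-06). CCL3 amounted to 38.5% ± 7.15 (SD, n = 3) of the CCL3L3 level (CPM) in DMSO and 36.4% ± 10.4 in BIX, with overlapping libraries (exact permutation p = 0.7). With the counts of both genes added, the log2 fold change was 1.30 (SE 0.15, edgeR adjusted p = 2.39e-05).

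CCL4L2 did not follow CCL4. It had 27.3, 29.1 and 26.4 CPM in DMSO a, b and c and 31.8, 22.6 and 33.2 CPM in BIX 1, 2 and 3, a log2 fold change of 0.08 (SE 0.13, edgeR adjusted p = 0.655), and BIX 2 was again the lowest library. The level of CCL4L2 as a percentage of CCL4 was 12.6%, 12.1% and 12.6% in DMSO a, b and c and 7.46%, 6.22% and 6.82% in BIX 1, 2 and 3. Every BIX library lay below every DMSO library on this ratio, with an exact two-sided permutation p of 0.1, the smallest possible. With the counts of CCL4 and CCL4L2 added, the log2 fold change was 0.86 (SE 0.09, edgeR adjusted p = 1.2e-05).

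RefSeq promoter sequences (GRCh38.p14) matched 3 of these 7 human genes, CCL3, CCL3L3 and XCL2. The 250 bases before the start of CCL3 (chr17:36090144-36090393, minus strand) and CCL3L3 (chr17:36196759-36197008, minus strand) are printed 5′ to 3′ because these genes moved together, with TATAAA and GGAAA (or TTTCC, its reverse complement) in capitals:
CCL3 promoter: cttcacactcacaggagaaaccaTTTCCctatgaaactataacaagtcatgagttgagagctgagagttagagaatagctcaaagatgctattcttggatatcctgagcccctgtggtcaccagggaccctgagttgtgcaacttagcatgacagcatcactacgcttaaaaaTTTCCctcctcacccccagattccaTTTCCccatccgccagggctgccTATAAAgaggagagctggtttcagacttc
CCL3L3 promoter: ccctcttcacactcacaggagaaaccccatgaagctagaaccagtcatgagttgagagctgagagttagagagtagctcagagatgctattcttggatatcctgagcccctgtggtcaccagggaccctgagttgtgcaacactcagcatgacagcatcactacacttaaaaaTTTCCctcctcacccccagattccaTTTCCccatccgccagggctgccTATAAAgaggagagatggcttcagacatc
The aligned promoters were 91.4% identical. Both held TATAAA, which was found in 11.2% of the 27305 promoters on either strand, with its first base 29 bases before the start. GGAAA, the core of NFAT sites, occurred 3 times in CCL3 and 2 times in CCL3L3, all on the opposite strand, and was present in 56.0% of promoters. XCL2 held GGAAA but not TATAAA. None of the 3 held TGANTCA (AP-1; 6.57% of promoters), TGACGTCA (CRE; 1.75%) or the NF-kB motif (17.9%) in this window.

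Per kilobase of exon, the human order in DMSO was CCL5 at 500 ± 44.7 (SD, n = 3), CCL4 at 124 ± 9.21, XCL2 at 18.2 ± 2.37, XCL1 at 11.4 ± 0.734 and CCL3 at 3.36 ± 0.778 CPM per kb, with no overlap between neighbours. In BIX cells the levels were 957 ± 108 for CCL5, 237 ± 34.4 for CCL4, 17.1 ± 1.43 for XCL2, 14.4 ± 4.12 for XCL1 and 8.12 ± 3.35 CPM per kb for CCL3. Libraries of XCL2 and XCL1 overlapped there, and so did those of XCL1 and CCL3. Exons of transcripts that retain introns add to the human lengths. Per kilobase of the longest coding transcript, CCL3 (15.6) stood just above XCL1 (14.4) in BIX. On that length CCL4 came nearer to CCL5 in DMSO, at 337 against 525 CPM per kb. CCL5 supplied 72.6% to 75.2% of the summed member CPM in every NK92MI library.

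Of the 3 tested receptors described here, CCR1 fell slightly and ACKR2 rose. CCR1 went from 265 ± 4.18 to 213 ± 11.1 CPM (SD, n = 3; log2 fold change -0.31, edgeR adjusted p = 0.00142). ACKR2, a scavenging receptor of inflammatory CC chemokines, went from 4.90 ± 1.15 to 11.3 ± 0.443 CPM (log2 fold change 1.20, edgeR adjusted p = 8.62e-05). CCR3 had a log2 fold change of 0.27 (edgeR adjusted p = 0.15), and XCR1 was too low to be tested.

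Of 39 other chemokine ligands, 10 were listed and 4 tested. Of the 4, 3 rose, where 18.4% of all tested genes rose and 18.4% fell. CCL18, a CC gene on the same stretch of chromosome 17, had 65.1, 74.2 and 66.6 CPM in DMSO a, b and c and 170, 146 and 198 CPM in BIX 1, 2 and 3 (log2 fold change 1.32, edgeR adjusted p = 4.38e-07). CXCL8, the neutrophil attractant IL-8, rose from 0.273 ± 0.120 to 3.19 ± 0.723 CPM, and CXCL10, an interferon-induced T cell attractant, rose from 0.663 ± 0.142 to 3.25 ± 1.04 CPM (edgeR adjusted p = 1.1e-05 and 0.000134). Both were scarce, with 174 and 197 counts over the 6 libraries. Of 5 other chemokine receptors tested, CCR7 (log2 fold change 2.27, edgeR adjusted p = 1.95e-09) and CXCR4 (1.58, 3.37e-09), which guide cells to lymphoid tissue and marrow, rose and CXCR3, the CXCL10 receptor, fell (-0.84, 1.48e-05).

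Among 27 regulators of chemokine transcription and mRNA decay, 14 rose and 4 fell, where 18.4% of all tested genes rose and 18.4% fell. By DESeq2 at an adjusted p below 0.01 with an absolute log2 fold change above 0.5, 9 rose and 1 fell. The risers included the NF-kB genes NFKB2 (log2 fold change 1.50), RELB (1.39), REL (0.57) and NFKB1 (0.43) and the NF-kB inhibitor NFKBIA (1.18). The BIX and DMSO libraries of REL overlapped, and DESeq2 gave REL an adjusted p of 0.0772. RELA did not pass (0.13, edgeR adjusted p = 0.138). AP-1 genes JUN (1.76), JUNB (1.35) and FOSL2 (0.83) rose and FOS fell (-0.72). The mRNA decay factors ZFP36L1 (1.04) and ZFP36L2 (0.48), the lineage factor RUNX3 (0.64), IRF4 (0.51), PRDM1 (0.48) and IRF1 (0.43) rose too. TBX21 (-0.46), EOMES (-0.17) and IRF8 (-0.57) fell, though DESeq2 gave EOMES an adjusted p of 0.0596. In the human pan-NK list, 5 of 12 genes rose, among them KLRD1 (0.65), PRF1 (0.57) and NCR3 (0.48), and 5 fell, among them TBX21, KLRC1 (-0.38) and NCR1 (-0.35). Its median log2 fold change was 0.03, with sums of 3952 to 4270 CPM in DMSO and 4092 to 4885 CPM in BIX.

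**Figure D4:**
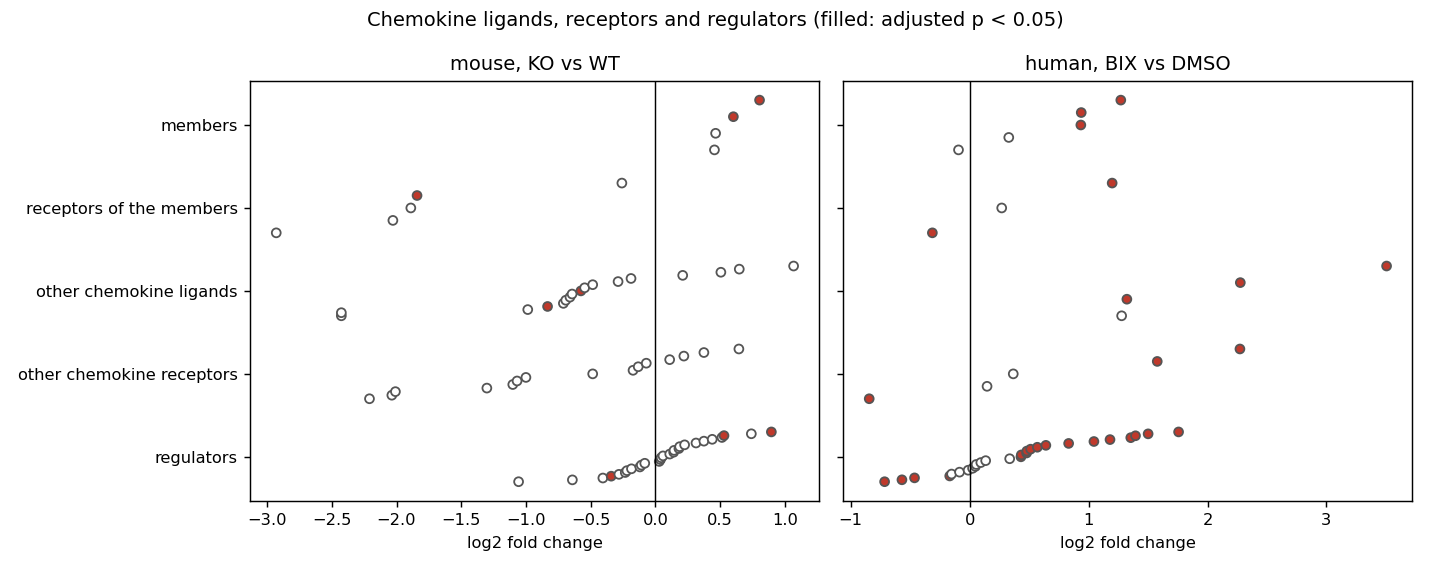
Log2 fold change of each tested gene (horizontal axis) for the members, their receptors, other chemokine ligands and receptors, and regulators, in mouse KO against WT (left) and human BIX against DMSO (right); filled points have an adjusted p below 0.05. Mouse ligands other than the members lie mostly below 0, with a median of -0.58, while 4 of 4 tested human ones lie above 0.

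Genes that neighbour the CC members were examined after their values had been seen. Within 250000 bases of a CC member's start, 13 other genes were tested in mouse, with 5 higher in KO and a median log2 fold change of -0.54. Heatr9, whose start lies 8343 bases from that of Ccl5, was the neighbour that passed as higher, at 23.0, 37.7 and 27.4 CPM in WT 1, 2 and 3 and 45.1, 54.5 and 57.2 CPM in KO 1, 2 and 3 (log2 fold change 0.83, SE 0.19, edgeR adjusted p = 0.04). Ccl6, Ccl9 and Wfdc21 passed as lower, Wfdc21 with 10 to 221 counts in WT and 0 to 2 in KO libraries. Over all tested mouse genes, 4.44% passed as higher and 7.43% as lower. In human cells, 5 other genes were tested near CCL3, CCL4 and CCL5 or their copies. CCL18 passed as higher and RDM1 as lower (log2 fold change -0.73, edgeR adjusted p = 0.00555). Over all tested human genes, 18.4% passed as higher and 18.4% as lower, so these counts were near that share. HEATR9 was low, at 0.996 and 1.81 CPM on average in DMSO and BIX, and did not pass (log2 fold change 0.85, SE 0.36, edgeR adjusted p = 0.0761). CCL3-AS1, a noncoding gene that overlaps CCL3 on the other strand over 1879 bases, had a log2 fold change of -0.08 (SE 0.13, edgeR adjusted p = 0.692). Whether counting used strand is not given in the sources used here, so reads of CCL3 and CCL3-AS1 may not be told apart. Xcl1, CCL5 and CCL3L3 also overlap opposite-strand noncoding genes of the annotation that the tables do not list, and XCL1 and XCL2 each overlap an opposite-strand ribosomal protein pseudogene.

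**Figure D5:**
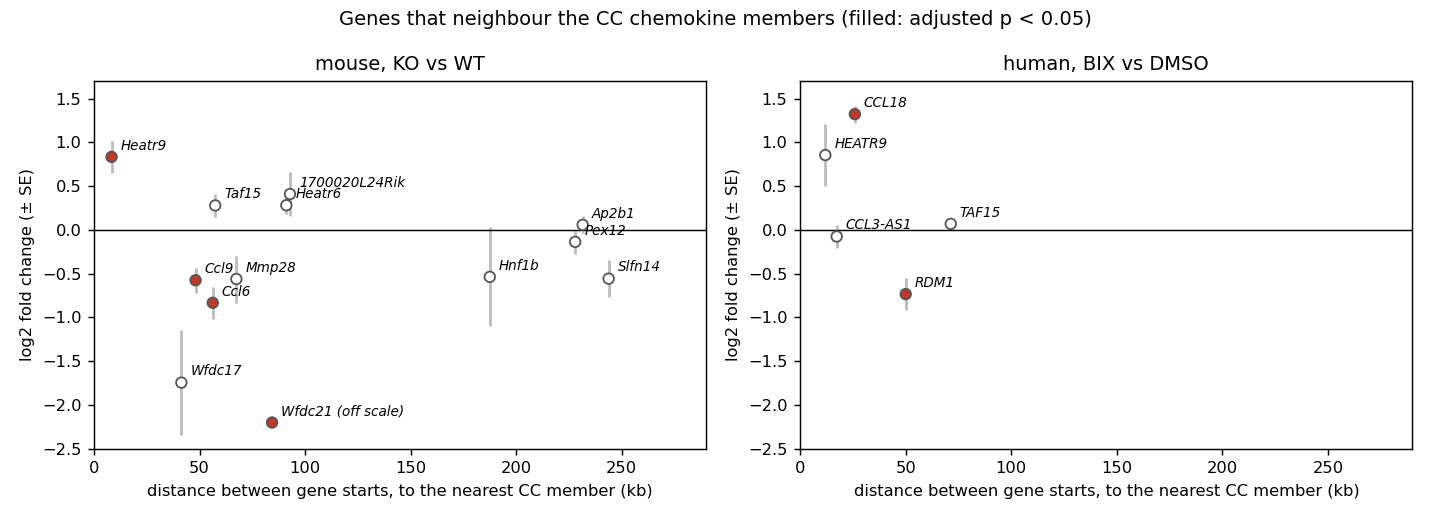
Log2 fold change ± SE of genes near the CC members (vertical axis) against the distance from their start to that of the nearest CC member in kb (horizontal axis), in mouse (left) and human (right); filled points have an adjusted p below 0.05. Heatr9, 8343 bases from Ccl5, and CCL18, 25897 bases from CCL3, are the filled points above 0, and Wfdc21 is drawn at the lower edge because it lies off the scale.

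The genes whose log2 CPM ran most like each member over the 6 libraries of a species are given as a description, since the libraries share the group difference. Of 10250 mouse genes with a mean of at least 5 CPM, Ccl4 ran most like Hopx (Pearson r = 0.997) and Socs1 (r = 0.996), a feedback inhibitor of cytokine signalling. Both passed as higher in KO, with log2 fold changes of 0.96 and 0.95 (edgeR adjusted p = 0.0275 and 0.0269). Ccl5 ran most like Vcpkmt (r = 0.997) and the adhesion receptor gene Cd2 (r = 0.994), Ccl3 like Clasrp and Phldb3 (both r = 0.997), and Xcl1 like Btbd19 (r = 0.996) and Acot8 (r = 0.993). Of 9460 human genes, CCL5 ran most like RELB and UPP1 (both r = 0.999), and CCL4 like ALOX5AP, which activates leukotriene synthesis (r = 0.9996), and SELENOS (r = 0.999). CCL3 was closest to MRPS33 (r = 0.997) and HINT1 (r = 0.995), XCL1 to KDELR1 (r = 0.992) and NPIPA1 (r = 0.990), and XCL2 to DDX41 (r = 0.985) and COQ9 (r = 0.970). Between members, r was 0.965 for Ccl4 with Xcl1, 0.935 for Ccl3 with Ccl5 and 0.995 for CCL4 with CCL5, while XCL2 had values of -0.14 to 0.19 with the other human members.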

How the data were processed

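The data were 3 WT and 3 KO mouse libraries and 3 DMSO and 3 BIX human libraries of polyadenylated RNA. The deposited values are raw gene counts, which the authors made, per the labels and the study's methods, with fastp 0.23.4, STAR 2.7.11b and HTSeq 2.0.3 before testing with DESeq2. The annotation release and the settings for strand and multi-mapping reads are not given in the sources used here. Counts were filtered (filterByExpr), TMM-scaled and tested with edgeR 4.0.16 (quasi-likelihood, 3 against 3, Benjamini-Hochberg over all tested genes) in R 4.3.3. DESeq2 1.42.0, limma 3.58.1 (voom), other scalings and filters, and each library left out served as alternatives. The procedure was tested on simulated counts. The biological coefficient of variation was 18.2% in mouse and 7.55% in human data, and depth limited precision mainly for genes of a few CPM.

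The members and gene lists were chosen with earlier results of these data known, and so was the threshold of 0.05: at an adjusted p below 0.01 with an absolute log2 fold change above 0.5, edgeR called 0 mouse genes (smallest adjusted p 0.0116; 2080 higher and 2639 lower at an unadjusted p below 0.05), and DESeq2 called 401 higher and 1098 lower. Named genes were all members, the receptors of the members, other chemokine ligands, receptors and regulators that passed, and the 2 genes most correlated with each member (log2 CPM, prior count 2). Some genes were named outside this rule, among them Ehmt2, Ezh2, RELA, neighbours of the CC members and part of the cell type markers. Positions and exon lengths came from GENCODE M21 (GRCm38) and v44 (GRCh38), matched by symbol. Sequences were aligned with Biopython. The receptor lists are given in part, and the rest is not reported here.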

Additional observations from a re-analysis of the deposited data

How the results depend on the processing

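In mouse, 2 members passed as higher. Under the other scalings, filters and limma-voom 2 passed, by DESeq2 3, and rescaled to the pan-NK list 0. Leaving out 1 library gave 0 to 4 members, and 0 to 1433 genes higher and 0 to 2097 lower over the whole table (585 and 980 with all libraries). An arm with 1 library left out keeps 2 libraries. The whole-table counts were 1096 higher and 1996 lower by DESeq2, 34 and 8114 with pan-NK scaling, and 0 and 0 by edgeR at an adjusted p below 0.01 with an absolute log2 fold change above 0.5, where 0 members passed. DESeq2 at those thresholds, an alternative chosen after seeing the data, called 2 mouse members (401 genes higher, 1098 lower). Pan-NK scaling turned Ccl3 (-0.30), Ccl4 (-0.18) and Ccl5 (-0.28) below 0. The cause was not tested. Whether the replicate numbers pair the mouse samples was not settled. Deviations of same-numbered libraries correlated at 0.281, 0.352 and -0.188, and those of differently numbered libraries at -0.436 to 0.284. With the replicate number as a block, 4 members passed, and 1292 genes were higher and 1930 lower.

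In human cells 3 members passed under every alternative at an adjusted p below 0.05, except 4 without BIX 2. At the stricter thresholds edgeR called 794 genes higher and 691 lower, and DESeq2 790 and 654, against 2348 and 2344. No paired analysis was possible because the numbers on the DMSO columns could not be tied to the labelled DMSO samples, and no block on them was fitted. Without division by length XCL1 ranked above XCL2 in both human groups, and CCL3 above XCL2 in BIX. The length of the longest coding transcript, also added after seeing the data, exchanged CCL3 and XCL1 in BIX.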
